A study of Mus musculus with 6 samples.

Results

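Npas4 and the nuclear receptor genes Nr4a1, Nr4a2 and Nr4a3 are transcription factor genes that neurons switch on within minutes of strong activity. They were taken from the table by gene symbol, and all 4 were found among its 23361 genes. Their transcripts were measured by RNA sequencing of whole hippocampus from 3 Tet1+/+ mice (wild-type) and 3 Tet1Δe4-/- mice (Tet1-deficient). The Tet1-deficient mice lack exon 4 of Tet1 on both alleles, and Tet1 encodes an enzyme that oxidises 5-methylcytosine in DNA. The deletion is not described as limited to one cell type in the labels, which give neither age nor strain. Every mouse had been given electroconvulsive shock with ear clamps (18 mA, 100 Hz, pulses of 0.2 ms for 1.15 seconds), which evokes a tonic-clonic seizure, and hippocampi were frozen 1.5 to 2 hours later. No library from an unshocked mouse was analysed here, so the values are levels after the shock and not its effect.

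Npas4 is a basic helix-loop-helix PAS factor that calcium entry induces selectively in neurons; it binds DNA as a dimer with Arnt or Arnt2 and is known for setting the number of inhibitory synapses on excitatory cells. The Nr4a receptors are orphan members of the nuclear receptor superfamily. They act without a known classical hormone ligand, so the amount of receptor made largely sets their activity, and in hippocampus they are known for their part in the formation of long-term memory. The Nr4a genes are classical targets of CREB, the factor that binds the cyclic AMP response element (CRE) in gene promoters. Transcripts of all 4 genes rise and decay within hours, and a level measured at 1 time is a point on that curve.

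The CRE core (TGACG, on either strand) was looked for in the 250 bases before each gene's start in RefSeq. The assembly was GRCm38.p6, that of the mm10 files. The sequences show cores within these windows, all of them for Npas4, Nr4a1 and Nr4a2 and 2 of 4 for Nr4a3. They run 5′ to 3′ on the strand of the gene, with each core in capitals. Where the window before the RefSeq start lies in an exon of the GENCODE M21 annotation, as 250 bases do for Npas4 and 152 for Nr4a3, 30 bases around the closest pair of cores are shown.
Npas4, chr19:4990129-4990158, minus strand: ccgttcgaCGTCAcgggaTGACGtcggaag
Nr4a1, chr15:101266596-101266845, plus strand: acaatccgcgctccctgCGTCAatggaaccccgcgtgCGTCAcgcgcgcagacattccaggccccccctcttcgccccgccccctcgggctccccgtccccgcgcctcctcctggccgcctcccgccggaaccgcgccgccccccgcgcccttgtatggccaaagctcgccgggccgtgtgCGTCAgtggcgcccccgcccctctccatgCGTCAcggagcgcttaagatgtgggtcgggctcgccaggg
Nr4a2, chr2:57124004-57124253, minus strand: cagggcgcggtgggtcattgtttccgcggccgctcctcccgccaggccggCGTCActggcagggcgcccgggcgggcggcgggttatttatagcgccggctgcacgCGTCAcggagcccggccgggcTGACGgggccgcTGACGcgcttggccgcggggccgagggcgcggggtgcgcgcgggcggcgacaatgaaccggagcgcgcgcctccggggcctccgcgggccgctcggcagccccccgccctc
Nr4a3, chr4:48045083-48045112, plus strand: gtcccatgtCGTCAcatTGACGtctcgcat

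Each of the 3 Nr4a windows held 4 CRE cores, and the Npas4 window held 2. All 250 bases of the Npas4 window and 152 of the Nr4a3 window are exon in GENCODE M21. The 4 windows are thus not like regions. Of 27025 genes with a window in the RefSeq table, 19.8% had at least 1 core, 4.46% at least 2 and 0.163%, or 44 genes, at least 4, counted in the window richest in cores for a gene with several. These shares were not matched for GC content, which was 68.8% in the window of Npas4, 74.4% for Nr4a1, 80% for Nr4a2 and 63.6% for Nr4a3. The full palindrome TGACGTCA, which holds a core on each strand, was in none of the 4 windows and in 1.55% of all 32851 windows. Neither the Nr4a monomer element AAAGGTCA (1.34% of all windows), the CArG box of serum response factor (1.47%) nor the MEF2 site (0.508%) was in any of the 4, and TATAAA (12.4%) was in that of Nr4a2 alone. Of the 29 other immediate early genes listed for comparison, 24 had a window, and 15 of these held at least 1 core, 8 at least 2 and 0 at least 4. These are matches of letters in a short window and not measured binding, and their part in the levels was not tested.

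The genes lie on separate chromosomes. In GENCODE M21 on GRCm38, Npas4 (ENSMUSG00000045903.9) spans 4984355 to 4990316 on the minus strand of chromosome 19, Nr4a1 (ENSMUSG00000023034.7) 101254269 to 101274795 on the plus strand of chromosome 15, Nr4a2 (ENSMUSG00000026826.13) 57106830 to 57124003 on the minus strand of chromosome 2, and Nr4a3 (ENSMUSG00000028341.9) 48045153 to 48086447 on the plus strand of chromosome 4. All 4 are protein-coding, with 6 exons in the longest transcript of Npas4 and 8 in that of each Nr4a gene. No other annotated gene overlaps any of them. The Nr4a genes are paralogs, yet their transcripts shared no run of 50 bases with each other: such runs were shared with other genes by 0% of Npas4, Nr4a1 and Nr4a2 and by 0.150% of Nr4a3, and the latter matched Dcdc2a, Gm45528 and Vmn2r111.

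Values are FPKM, which divides the fragments of a gene by its length and by the size of the library, so levels can be compared between genes. The depth of the libraries is unknown. Replicate numbers are names and pair no mice. Tet1 itself measured 0.977, 0.718 and 0.897 FPKM in wild-type mice, against 0.740, 0.685 and 0.638 FPKM in Tet1-deficient mice, which overlapped, and a gene-level value does not check the deletion of 1 exon. On the first principal component of all genes tested, which held 53.3% of the variance, wild-type replicate 1 and Tet1-deficient replicate 1 stood apart from the other 4 libraries. Markers of neurons and of dentate and pyramidal cells were found in every library. Xist was at 63.5 FPKM in wild-type replicate 1 and at most 0.202 FPKM in the other 5, and the sample title of this library alone carries an f where the others carry an m. Together, Xist and the listed Y-linked genes summed to 63.6 FPKM in that library and 45.9 to 85.0 FPKM in the others. By these values it came from the only female, and the Tet1-deficient group held none. Choroid plexus markers summed to 303.5 FPKM in wild-type replicate 3 and 196 in Tet1-deficient replicate 2, against 7.21 to 21.9 FPKM in the other 4. Of these markers 5 of 5 were above 0, but only 2 averaged 1 FPKM or more over the 6 libraries.

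None of the 4 genes differed between genotypes by more than the spread between mice. In each, wild-type replicate 1 had the highest value of all 6 libraries and Tet1-deficient replicate 1 the second highest, and the ranges of the genotypes overlapped.

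Npas4 measured 15.5, 5.14 and 3.97 FPKM in the 3 wild-type libraries and 8.03, 3.94 and 4.78 FPKM in the 3 Tet1-deficient libraries. Wild-type replicate 1 stood 1.93-fold above the next library, and the other 5 ran between 3.94 and 8.03 FPKM with the genotypes intermixed. The wild-type mean was 8.21 ± 6.35 FPKM and the Tet1-deficient mean 5.58 ± 2.16 FPKM (SD, n = 3), a ratio of 0.680. On the log2(FPKM + 1) scale the difference, Tet1-deficient minus wild-type, was −0.32 with an SE of 0.46 and a 95% interval from −1.41 to 0.77 (limma, adjusted p = 1.00).

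Nr4a1, the best studied of the receptors and a gene also induced in many cells outside the nervous system, measured 79.0, 41.1 and 31.9 FPKM in wild-type mice, against 58.7, 33.1 and 43.5 FPKM in Tet1-deficient mice. The highest and the lowest of the 6 values both came from wild-type mice. The means were 50.7 ± 25.0 and 45.1 ± 12.9 FPKM (SD, n = 3), a ratio of 0.890. The log2 difference was −0.10 (SE 0.35, 95% interval −0.93 to 0.73; limma, adjusted p = 1.00).

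Nr4a2, which encodes the receptor that dopaminergic neurons of the midbrain need to develop and survive, measured 77.3, 33.4 and 29.3 FPKM in wild-type mice, against 51.0, 27.3 and 39.4 FPKM in Tet1-deficient mice. Its wild-type replicate 1 value was 2.47-fold the mean of the other wild-type libraries. The means were 46.7 ± 26.6 and 39.2 ± 11.8 FPKM (SD, n = 3), a ratio of 0.840, and the log2 difference was −0.15 (SE 0.39, 95% interval −1.07 to 0.77; limma, adjusted p = 1.00).

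Nr4a3, the third of the receptors, measured 102, 63.8 and 61.2 FPKM in wild-type mice, against 83.2, 58.2 and 76.7 FPKM in Tet1-deficient mice. It varied least of the 4 between libraries, with 1.76-fold between the highest and the lowest, against 3.94-fold for Npas4, 2.83-fold for Nr4a2 and 2.48-fold for Nr4a1. The means were 75.8 ± 23.1 and 72.7 ± 13.0 FPKM (SD, n = 3), a ratio of 0.959. The log2 difference was −0.03 (SE 0.23, 95% interval −0.57 to 0.50; limma, adjusted p = 1.00).

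**Figure D1:**
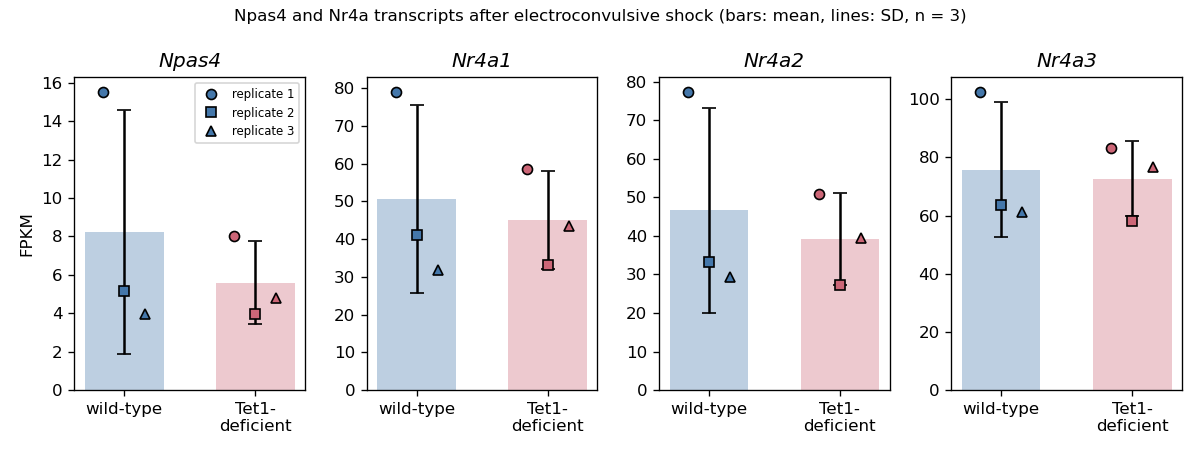
FPKM of Npas4, Nr4a1, Nr4a2 and Nr4a3 (vertical axes, from 0) in each wild-type and Tet1-deficient library. Points are libraries, bars the mean and lines the SD over 3 libraries; replicate 1 is the highest point of each genotype in all 4 panels, and the genotypes overlap.

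The 4 unadjusted limma p-values were 0.506 for Npas4, 0.789 for Nr4a1, 0.706 for Nr4a2 and 0.883 for Nr4a3. Exact two-sided permutation tests of the FPKM values gave p = 0.6, 0.9, 0.8 and 0.8 in the same order, where 0.1 is the smallest p that 3 libraries against 3 allow. Thus 0 of 4 genes passed the threshold of 0.05 after adjustment over all 12533 genes tested, and 0 had an unadjusted p under 0.05. Of all genes tested, 0.0319% passed the threshold and 1.36% had an unadjusted p under 0.05. The groups did not overlap for 0 of the 4 genes, against 4.13% of genes tested. The intervals are wide. On the scale of the model they reach from 0.376 to 1.70 times the wild-type level for Npas4 and from 0.672 to 1.42 times for Nr4a3. A loss or gain within these bounds is compatible with the data. The intervals are not adjusted for the number of genes tested, so they are not a limit of detection.

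The direction of the differences rested on single libraries. Without wild-type replicate 1 the wild-type mean of Npas4 was 4.56 FPKM and the ratio of Tet1-deficient to wild-type 1.23, and the ratios of Nr4a1, Nr4a2 and Nr4a3 were 1.24, 1.25 and 1.16. The log2 differences then were 0.20, 0.27, 0.27 and 0.20, and none passed the threshold (limma, adjusted p = 0.877 for each). That fit leaves out the only library with high Xist, and the part of sex in the turned sign was not tested. Without Tet1-deficient replicate 2 the differences of the Nr4a genes also turned, to 0.10, 0.08 and 0.12, while that of Npas4 was −0.14. Without wild-type replicate 3 the 4 differences were −0.66, −0.37, −0.41 and −0.17, without wild-type replicate 2 −0.51, −0.19, −0.32 and −0.14, and without Tet1-deficient replicate 1 −0.57, −0.30, −0.36 and −0.14.

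The 2 libraries that stood apart were also set against each other, and the other 4 among themselves. The sign differed between these comparisons for the Nr4a genes and not for Npas4. Between wild-type replicate 1 and Tet1-deficient replicate 1, with 1 library of each genotype and no test, the log2 differences of Npas4, Nr4a1, Nr4a2 and Nr4a3 were −0.87, −0.42, −0.59 and −0.30. Among the other 4 libraries they were −0.05, 0.07, 0.07 and 0.10 (limma, adjusted p = 0.999 for each). In those 4 libraries the mean of Npas4 was 4.56 FPKM for the wild-type pair and 4.36 FPKM for the Tet1-deficient pair, and that of Nr4a1 36.5 and 38.3 FPKM.

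**Figure D2:**
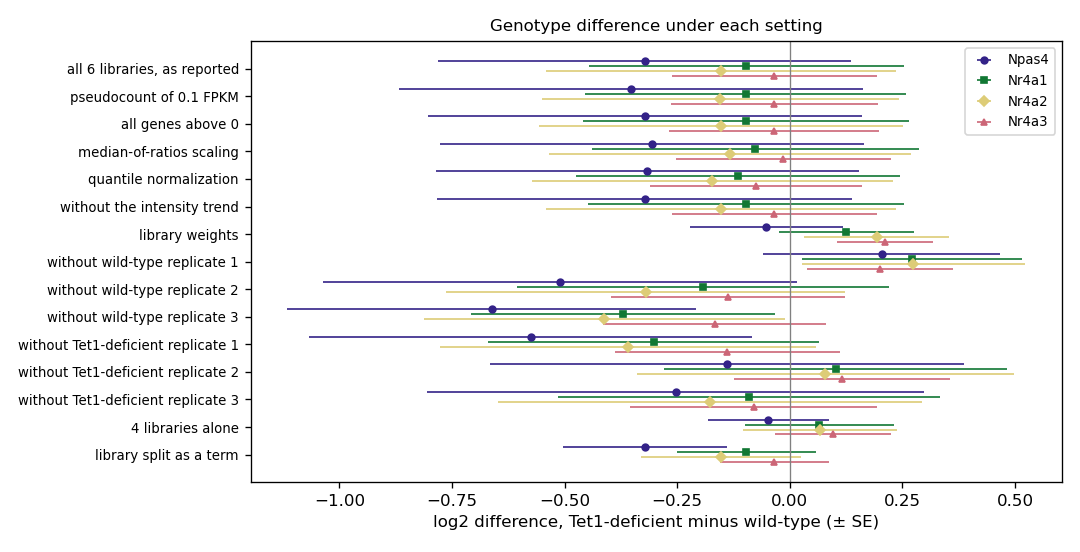
Log2 difference in FPKM between genotypes (horizontal axis, Tet1-deficient minus wild-type, lines ± SE) for Npas4, Nr4a1, Nr4a2 and Nr4a3 in all 6 libraries and under each other setting. The points lie left of 0 in all 6 libraries and right of 0 without wild-type replicate 1, where they run from 0.20 to 0.27.

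The libraries spread widely next to the differences between genotypes. The SD of log2(FPKM + 1) over the 6 libraries was 0.67 for Npas4, 0.55 for Nr4a2, 0.49 for Nr4a1 and 0.31 for Nr4a3. It pools both genotypes, so it includes the difference between them. These SDs lay at percentile 99.2, 98.8, 98.3 and 89.9 of the genes tested. The 2 libraries that stood apart averaged 2.64-fold the other 4 for Npas4, 1.98-fold for Nr4a2, 1.84-fold for Nr4a1 and 1.43-fold for Nr4a3. Within the other 4 libraries the highest value was 1.31 to 1.44 times the lowest for each of the 4 genes.

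**Figure D3:**
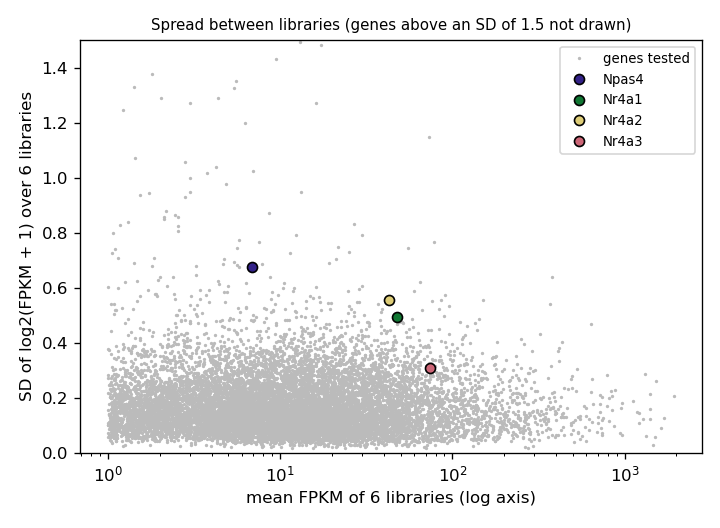
SD of log2(FPKM + 1) over the 6 libraries (vertical axis) against mean FPKM (horizontal log axis) for the 12533 genes tested, with Npas4 and the Nr4a genes marked. Npas4, Nr4a1 and Nr4a2 lie at percentiles 99.2, 98.3 and 98.8 of all genes tested and Nr4a3 at percentile 89.9.

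The 4 genes ordered the libraries almost alike. For Nr4a2 and Nr4a3 the order from high to low was identical: wild-type replicate 1, Tet1-deficient replicate 1, Tet1-deficient replicate 3, wild-type replicate 2, wild-type replicate 3 and Tet1-deficient replicate 2. Nr4a1 differed from it in the last 2 places, and Npas4 in the order of wild-type replicate 2 and Tet1-deficient replicate 3. Wild-type replicate 3 and Tet1-deficient replicate 2, in which the sum of the choroid plexus markers was high, were thus the lowest 2 libraries for each of the 4 genes. The part of that tissue, and of the difference marked by Xist, in these levels was not tested.

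Pearson's r of log2(FPKM + 1) over the 6 libraries was 0.989 for Nr4a1 with Nr4a2, 0.988 for Nr4a2 with Nr4a3 and 0.969 for Nr4a1 with Nr4a3. Npas4 had an r of 0.976 with Nr4a2, 0.973 with Nr4a1 and 0.933 with Nr4a3. Since the libraries fall into sets of 2 and 4, no p is given for these. Over the 4 libraries that lie together, r ran from 0.609 (Npas4 with Nr4a3) to 0.970 (Nr4a2 with Nr4a3). Many genes shared the pattern: 5.23% of the genes tested had an r of at least 0.9 with Npas4, 7.37% with Nr4a1, 5.72% with Nr4a2 and 4.09% with Nr4a3. By r among the 12532 other genes, the other 3 members stood at ranks 9 to 47 for Nr4a2, 7 to 225 for Nr4a3, 19 to 102 for Nr4a1 and 48 to 318 for Npas4. Without wild-type replicate 1 all 12 of these ranks were farther down, from 42 (Nr4a2 for Nr4a3) to 2774 (Nr4a3 for Npas4).

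The genes most like Npas4 over 6 libraries were Tor1aip1 (r = 0.997), Cdkn1b (0.996), Gpr75 (0.995), Kdm6a (0.995) and Sesn1 (0.993). Those most like Nr4a1 were Ints4 (0.998), Sde2, Pdk3, Morc3 (0.996 each) and Stk39 (0.995). For Nr4a2 they were 2210013O21Rik (0.998), Fam189b (0.995), Cpeb4 (0.995), Adnp (0.990) and Ube2h (0.990), and for Nr4a3 Fam189b (0.998), Ube2h (0.995), Tor1b (0.993), Mapk14 (0.991) and Frmd6 (0.989). A high r does not speak to the size of the change: Fam189b ran from 11.9 to 14.3 FPKM only. Without wild-type replicate 1 other names led, apart from Fam189b and Mapk14 for Nr4a3, and the immediate early gene Egr2 then stood among the nearest to Nr4a2 (r = 0.998 over 5 libraries).

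Nr4a3 was the most abundant of the 4 per length in every library, followed by Nr4a1, Nr4a2 and Npas4. Nr4a3 exceeded Nr4a1 by 1.30- to 1.92-fold within a library. Nr4a1 exceeded Nr4a2 by only 1.02- to 1.23-fold within a library. The SDs of these neighbours over mice overlapped, which does not bear on their order within a library. The ratio of Npas4 to Nr4a3 was 0.151 in wild-type replicate 1, 0.0964 in Tet1-deficient replicate 1 and between 0.0624 and 0.0805 in the other 4 libraries. No ratio between 2 of the genes separated the genotypes. Over the 6 pairs, each taken both ways up, the exact two-sided permutation p ran from 0.4 to 0.9.

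**Figure D4:**
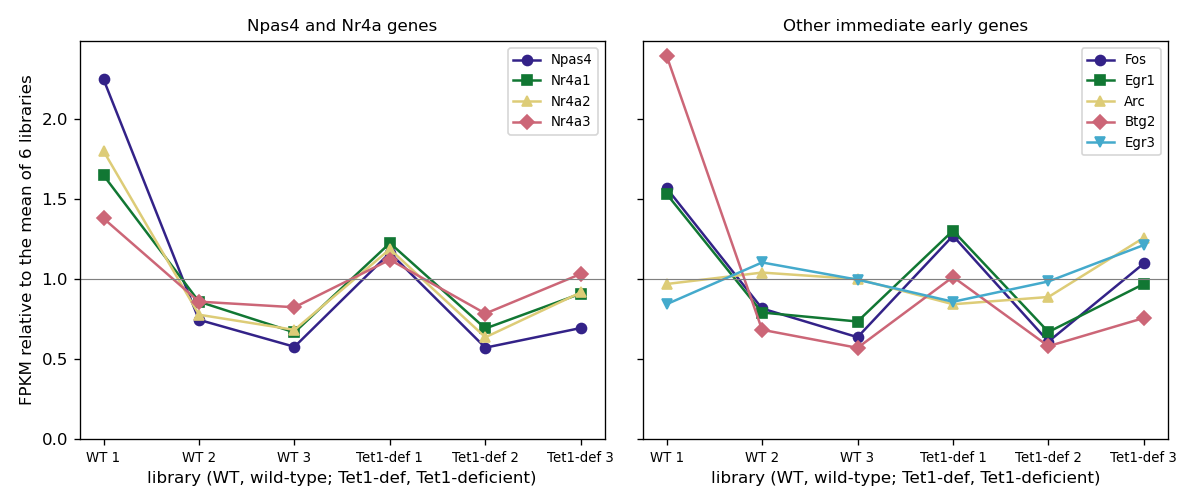
FPKM in each library divided by the mean of the 6 libraries (vertical axis), for Npas4 and the Nr4a genes and for 5 other immediate early genes. Wild-type replicate 1 and Tet1-deficient replicate 1 lie above 1 for the Npas4 and Nr4a genes, Fos, Egr1 and Btg2, and below 1 for Arc and Egr3.

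Other immediate early genes fell into more than 1 pattern over the libraries. Fos, a subunit of the AP-1 factor, measured 39.3, 20.4 and 15.9 FPKM in wild-type mice, against 31.8, 15.2 and 27.5 FPKM in Tet1-deficient mice, and the zinc finger factor gene Egr1 169, 87.4 and 81.2 FPKM and 144, 74.0 and 107 FPKM. Both were highest in the libraries in which Npas4 and the Nr4a genes were. Arc, whose product acts at synapses, had 209, 224 and 215 FPKM in wild-type mice, against 181, 191 and 271 FPKM in Tet1-deficient mice, with its highest value in Tet1-deficient replicate 3. Of 29 listed genes, 15 had their highest value in wild-type replicate 1, as had 4 of 4 here and 16.6% of all genes tested. The top 2 places of wild-type replicate 1 and Tet1-deficient replicate 1 were found for 10 of the 29, for 4 of 4 here and for 9.86% of all genes. Btg2, an antiproliferative gene named after its values were seen, was the most uneven of those plotted, with 27.2, 7.74 and 6.46 FPKM in wild-type mice, against 11.5, 6.57 and 8.57 FPKM in Tet1-deficient mice, while Egr3, named likewise, had 282, 369 and 333 FPKM and 287, 330 and 406 FPKM. Between genotypes 9 of the 29 were higher and 20 lower, with a median log2 difference of −0.03 against 0.01 for all genes tested, and 0 passed the threshold or had an unadjusted limma p under 0.05. That median turned to 0.03 without wild-type replicate 1, 0.04 without Tet1-deficient replicate 2, 0.02 in the 4 libraries that lay together and 0.15 with library weights, and was −0.17 without wild-type replicate 3. The smallest p-values were those of Atf3 (log2 difference 0.58, unadjusted limma p 0.130), Maff (−0.23, 0.134) and Ier2 (−0.14, 0.316).

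None of the dimer partners and close relatives of the 4 factors passed the threshold. Arnt, the general partner of bHLH-PAS factors, measured 8.88 FPKM or more in each wild-type mouse and 7.89, 8.68 and 9.23 FPKM in the Tet1-deficient mice (log2 difference −0.13). Arnt2, its neuronal relative, had 49.8, 51.9 and 49.8 FPKM and 42.7, 49.3 and 47.7 FPKM; its groups did not overlap, and its log2 difference of −0.12 did not pass (limma, unadjusted p 0.233). Of 13 other bHLH-PAS genes 10 were tested, with 6 higher and 4 lower and a median of 0.01. The smallest unadjusted p-values were those of Hif3a (0.13, p 0.360), Npas2 (−0.16, p 0.367) and the clock gene Arntl (0.07, p 0.462; limma log2 differences). Rxra, Rxrb and Rxrg encode the retinoid X receptors, with which Nr4a1 and Nr4a2 can pair. Their log2 differences were −0.10, 0.05 and −0.16, at mean levels of 8.85, 20.3 and 1.83 FPKM in wild-type libraries. Of 46 nuclear receptor genes outside the Nr4a family, Rxra, Rxrb and Rxrg among them, 28 were tested. Of these 15 were higher and 13 lower, with a median of 0.01. Among them 1 had an unadjusted limma p under 0.05, Nr2f2 (8.47 ± 1.17 and 6.35 ± 1.29 FPKM, SD, n = 3, log2 difference −0.37, p 0.0490), and 0 passed the threshold. Next by p were Rxrg (p 0.180) and Nr1d1 (−0.12, p 0.283).

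Genes whose products bind the receptors or act above the 4 genes did not pass the threshold either. The corepressor genes Rcor1, Ncor1 and Trim28 had log2 differences of 0.01, 0.01 and −0.12, and the kinase gene Stk11 0.02. Of 19 genes of the pathway from calcium entry to CREB, SRF and MEF2, 9 were higher and 10 lower, with a median of −0.0012. One had an unadjusted limma p under 0.05: Camk2a, the calcium-dependent kinase, at 1208, 1192 and 1142 FPKM in wild-type mice, against 1415, 1354 and 1339 FPKM in Tet1-deficient mice (log2 difference 0.21, p 0.0230). Its groups did not overlap and it did not pass the threshold. Ep300 (−0.08, p 0.447) and Camk4 (0.15, p 0.517) followed.

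Genes reported elsewhere as targets were counted from lists that were drawn up with earlier results of these data known. The 6 listed for Npas4 had differences from 0.01 to 0.18 on the log2(FPKM + 1) scale (median 0.04), and 0 passed or had an unadjusted limma p under 0.05. Bdnf, a neurotrophin gene, had 65.8, 43.6 and 41.4 FPKM in wild-type mice, against 59.6, 43.1 and 48.0 FPKM in Tet1-deficient mice, with the same 2 libraries highest as for Npas4, and its mean was 50.25 FPKM in both genotypes. Nptx2, a secreted synaptic pentraxin gene, was lowest in those libraries (64.8 and 70.6 FPKM, against 94.6, 96.9, 88.05 and 101 FPKM in the others). Syt10, Plk2, Mdm2 and Gem had differences of 0.18, 0.04, 0.05 and 0.01. Of the 6, only Mdm2 had groups that did not overlap, as had 4.13% of all genes tested. It had 17.3, 18.0 and 17.7 FPKM in wild-type mice, against 18.2, 18.5 and 18.3 FPKM in Tet1-deficient mice. Of 11 genes listed for the Nr4a receptors 9 were tested, 8 higher and 1 lower, with a median of 0.27, and 0 passed the threshold. Of the 9, 3 had an unadjusted limma p under 0.05 and groups that did not overlap. The shares of all genes tested were 1.36% and 4.13%. The list holds 6 tested genes of protein folding in the endoplasmic reticulum, and these 3 are among them. Hspa5 had 170, 165 and 149 FPKM in wild-type mice, against 221, 244 and 186 FPKM in Tet1-deficient mice (log2 difference 0.42, p 0.0109), Hsp90b1 a difference of 0.32 (p 0.0235) and Pdia6 0.27 (p 0.0354). The other such genes, Creld2 (0.33, p 0.0852), Sdf2l1 (0.38, p 0.209) and Calr (0.22, p 0.296), overlapped between genotypes. The order of libraries of Hspa5, Hsp90b1 and Pdia6 was not that of the receptors, since each was highest in Tet1-deficient replicate 2, where Npas4, Nr4a2 and Nr4a3 were lowest.

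**Figure D5:**
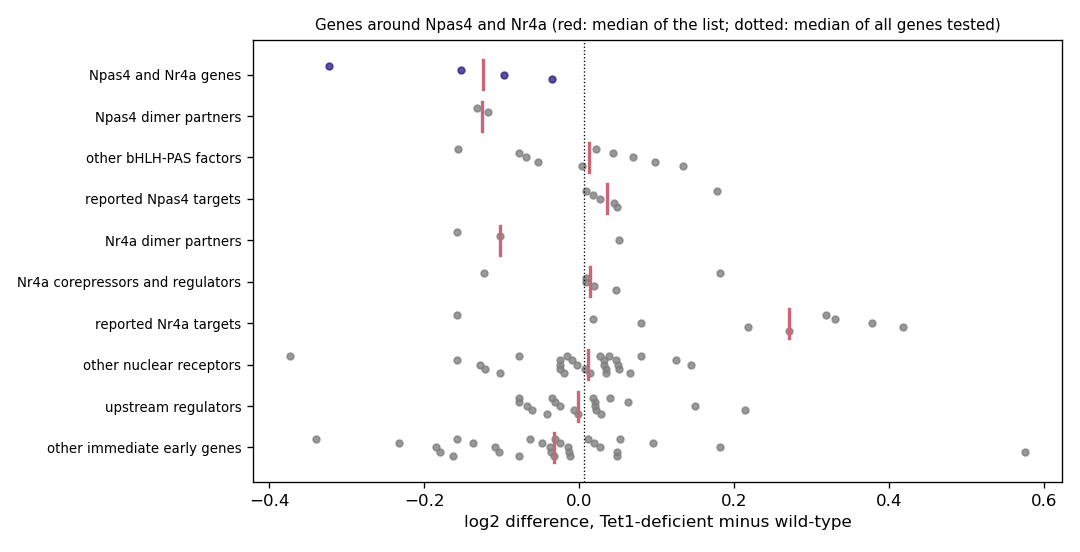
Log2 difference between genotypes (horizontal axis, Tet1-deficient minus wild-type) of Npas4 and the Nr4a genes and of each tested gene in 9 lists (rows), 1 point a gene, with the median of each list in red and that of all genes tested dotted. The medians lie between −0.13 and 0.27, and no listed gene passed the threshold.

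Markers of other cells in the tissue were summed by library. The 6 neuronal markers summed to 2484 to 2614 FPKM in wild-type mice, against 2607 to 2765 FPKM in Tet1-deficient mice. Of these, 4 were higher and 2 lower on average. The 5 dentate granule cell markers summed to 113 to 127 FPKM and 123 to 137 FPKM. Both sums held opposed members in the libraries that stood apart, wild-type replicate 1 and Tet1-deficient replicate 1. Prox1 (21.1 and 21.1 FPKM) and C1ql2 (17.9 and 12.7 FPKM) were lowest there and Calb1 highest, while Dsp and Tdo2 were neither. Among neuronal markers, Rbfox3 (70.2 and 65.4 FPKM) and Slc17a7 were lowest there, Snap25 and Syt1 highest, and Gad1 and Map2 neither. The 6 pyramidal cell markers of CA1 and CA3 summed to 188 to 206 FPKM in wild-type and 171 to 197 FPKM in Tet1-deficient libraries, with 2 higher and 4 lower on average. Of these 6, Iyd alone did not overlap between genotypes (1.25, 1.17 and 0.863 FPKM in wild-type mice, against 0.682, 0.469 and 0.620 FPKM in Tet1-deficient mice), and its mean lay under the filter of 1 FPKM. All 7 vessel and meningeal markers were lower on average in Tet1-deficient libraries, with sums of 32.9 to 54.7 and 29.6 to 39.6 FPKM. The sum of the 4 astrocyte markers was highest in the libraries that stood apart, at 457 and 411 FPKM against 356 to 395 FPKM in the other 4, through Slc1a3 and Aqp4, while Aldh1l1 was lowest there (16.1 and 15.9 FPKM) and Gfap was highest in wild-type replicate 3. The sum of the 4 microglia markers was 41.9 and 42.0 FPKM there against 33.6 to 36.1 FPKM, mostly through P2ry12, while Tmem119 was lowest there (8.95 and 9.99 FPKM). No marker of these lists was at 0 in all libraries. Their part in the levels of Npas4 and the Nr4a genes was not tested, and in whole tissue fewer cells of a type and less transcript per cell cannot be told apart.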

How the data were processed

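Whole hippocampus of 3 wild-type and 3 Tet1-deficient mice was sequenced, 1 library per mouse by the design text. The authors deposited gene-level FPKM values, made with TopHat2 2.0.9 and Cufflinks 2.1.1 on mm10, per the submitters' processing notes. For annotation, strand setting and filters nothing is stated in the sources used here. FPKM removes depth: of 362 genes under 0.03 FPKM in 2 libraries at most 5 shared a ratio to 3 decimals, so reads could not be recovered and no interval from counts is given.

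The 12533 of 23361 genes that averaged 1 FPKM or more were tested as log2(FPKM + 1), a scale that understates changes of low genes, with limma 3.58.1 in R 4.3.3 (intensity trend, no covariate, two-sided, Benjamini-Hochberg over all genes tested, threshold 0.05). The limma script was tested on simulated data. Exact permutation tests used scipy 1.17.1. Tet1, under 1 FPKM, was not tested. A permutation test of the correlations had been planned and is not reported, because the libraries fall into 2 sets. The genes, lists and tests were chosen with earlier results of these data known. Named were the 4 genes, Tet1, Fos, Egr1, Arc, Hspa5, all genes of lists of up to 6, the 3 smallest p-values of longer lists, and the 5 genes most like each of the 4. Some genes that this rule takes are not reported here. Alternatives were the pseudocount, filter, scaling, trend, library weights and each library left out. Added after the data were seen were the split on the first principal component as a term and a fit to 4 libraries.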

Additional observations from a re-analysis of the deposited data

How the results depend on the processing

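The genotype differences did not pass the threshold under any of 14 alternatives for any of the 4 genes, with adjusted p from 0.573 to 1.00 in limma, but their sign was not stable. With 1 library left out the log2 difference ran from −0.66 to 0.20 for Npas4, −0.37 to 0.27 for Nr4a1, −0.41 to 0.27 for Nr4a2 and −0.17 to 0.20 for Nr4a3. With library weights it turned to 0.13 for Nr4a1, 0.19 for Nr4a2 and 0.21 for Nr4a3, and in the 4 libraries that lie together to 0.0655, 0.0670 and 0.0961; the cause was not tested. The pseudocount of 0.1 FPKM, median-of-ratios and quantile normalization kept the sign for each of the 4. No filter, no trend and the split as a term alter the SE and p alone. The difference itself cannot move under these, so its unchanged sign there is no check. The count of all genes past the threshold, 4 in the reported fit, was 59 with library weights, 8 with the split as a term, 13 in the 4 libraries and 0 to 6 with 1 library left out. The 9 lists kept 0 calls under all 14. The correlations between the 4 genes ran from 0.839 to 0.998 over 9 alternatives. None of the 9 left out both libraries that stood apart. Without these, r was 0.609 for Npas4 with Nr4a3 and 0.970 for Nr4a2 with Nr4a3. No paired analysis was possible because the labels share only 1 number between the genotypes. With unknown depth and 3 mice a genotype, differences within the intervals given are compatible with the data, and larger ones could also miss the threshold.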
